A study of Mus musculus with 4 samples.

Results

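The WT-only intergenic regions are stretches of open chromatin of the newborn mouse heart that were called as ATAC-seq peaks in both wild-type hearts and in neither heart lacking the retinoid X receptors, and that lie between genes. They were chosen by joining the peaks of 4 libraries wherever they overlapped by at least 1 bp and keeping the joined regions with a peak in WT 1 and WT 2, no peak in edKO 1 or edKO 2, no overlap with a protein-coding gene, and a distance of 1 to 100 kb to the nearest start or end coordinate of such a gene. There were 1696 of these regions (the members), which is 3.19% of the 53140 joined regions. Because the members were selected on the calls themselves, their absence from the edKO lists and their values in the WT lists are a description and carry no test.

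The study used ATAC-seq, in which the Tn5 transposase cuts and tags accessible DNA, on nuclei of whole hearts of C57BL/6 mice at birth (P0), to compare hearts with and without the receptors in heart muscle cells. The edKO group (n = 2) carried a cardiomyocyte-specific loss of RXR alpha and RXR beta, labelled RXRab-/-. The WT group (n = 2) was labelled wild type, and each library came from 1 heart. The driver that limits the loss to cardiomyocytes, the alleles and the sex of the hearts are not stated in the sources used. By the label, the other cells of an edKO heart kept the receptors, which was not measured here. In such bulk samples, fewer cells of a type and less open chromatin per cell cannot be told apart. With 2 hearts against 2, no two-sided permutation test can give a p below 0.33.

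Retinoid X receptors are nuclear receptors that bind DNA as partners of other receptors, among them PPARs, liver X receptors, retinoic acid receptors and thyroid hormone receptors. The pairs recognise copies of the motif AGGTCA, and a pair of PPAR and RXR prefers 2 copies in a row with 1 base between them, called DR1. In heart muscle, PPAR and RXR targets serve fatty acid uptake and oxidation, which take over from glucose as the main fuel after birth. Open chromatin between genes often marks enhancers, stretches that act on genes at a distance, and the nearest gene is not always the one acted on.

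Base sequence was at hand where a member overlapped the promoter window of a non-coding gene, which runs from 250 bases before to 50 bases after the annotated start. That was the case for 45 members (2.65%), all at starts of long non-coding RNAs (lncRNAs), and 25 of these windows held the peak summits of both WT hearts. The windows below are from RefSeq (GRCm38.p6), read 5′ to 3′ on the strand of the lncRNA, and capitals mark the bases inside the member. The first 3 are the members' only windows with a DR1-like repeat of at most 2 mismatches, Gm32630 and Gm13404 are 2 of the strongest with both summits inside, and Lexis1, picked after its values were seen, is an lncRNA gene near the cholesterol transporter gene Abca1.
Gm32128 window: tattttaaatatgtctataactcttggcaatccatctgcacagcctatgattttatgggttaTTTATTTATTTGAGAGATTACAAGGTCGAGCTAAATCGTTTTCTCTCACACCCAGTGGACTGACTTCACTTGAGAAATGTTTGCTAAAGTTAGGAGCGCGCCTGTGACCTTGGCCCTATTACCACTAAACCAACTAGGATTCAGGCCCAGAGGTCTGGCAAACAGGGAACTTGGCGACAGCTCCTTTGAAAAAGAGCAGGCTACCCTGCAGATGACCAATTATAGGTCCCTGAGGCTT
AW822252 window: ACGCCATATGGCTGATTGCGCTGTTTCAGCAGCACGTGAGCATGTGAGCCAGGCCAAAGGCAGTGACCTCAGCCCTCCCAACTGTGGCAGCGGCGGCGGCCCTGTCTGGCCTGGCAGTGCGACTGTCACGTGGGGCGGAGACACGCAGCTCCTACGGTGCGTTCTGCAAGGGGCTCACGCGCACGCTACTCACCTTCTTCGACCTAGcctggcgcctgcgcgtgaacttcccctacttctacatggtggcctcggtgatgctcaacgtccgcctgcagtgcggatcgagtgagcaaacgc
2010204K13Rik window: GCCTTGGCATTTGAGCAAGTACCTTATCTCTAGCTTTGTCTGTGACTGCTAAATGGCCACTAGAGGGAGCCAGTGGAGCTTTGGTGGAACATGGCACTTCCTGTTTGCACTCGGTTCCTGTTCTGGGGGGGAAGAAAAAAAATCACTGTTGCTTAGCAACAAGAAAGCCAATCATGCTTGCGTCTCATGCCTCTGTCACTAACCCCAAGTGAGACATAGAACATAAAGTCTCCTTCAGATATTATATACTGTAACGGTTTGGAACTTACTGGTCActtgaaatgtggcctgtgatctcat
Gm32630 window: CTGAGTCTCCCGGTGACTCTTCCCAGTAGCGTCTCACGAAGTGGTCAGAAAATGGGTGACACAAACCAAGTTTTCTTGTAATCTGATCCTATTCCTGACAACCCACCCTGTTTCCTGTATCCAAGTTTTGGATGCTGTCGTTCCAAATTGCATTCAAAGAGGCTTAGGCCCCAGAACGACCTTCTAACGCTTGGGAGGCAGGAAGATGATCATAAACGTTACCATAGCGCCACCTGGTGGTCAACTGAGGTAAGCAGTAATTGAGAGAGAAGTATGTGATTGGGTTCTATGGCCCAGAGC
Gm13404 window: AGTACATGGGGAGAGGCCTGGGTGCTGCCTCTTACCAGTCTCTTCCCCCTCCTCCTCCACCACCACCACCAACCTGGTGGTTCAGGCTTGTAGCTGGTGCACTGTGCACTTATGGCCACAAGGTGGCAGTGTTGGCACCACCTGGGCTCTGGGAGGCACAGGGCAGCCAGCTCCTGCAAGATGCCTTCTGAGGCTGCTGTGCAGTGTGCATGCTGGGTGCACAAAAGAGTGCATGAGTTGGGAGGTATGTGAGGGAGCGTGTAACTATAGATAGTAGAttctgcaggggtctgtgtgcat
Lexis1 window: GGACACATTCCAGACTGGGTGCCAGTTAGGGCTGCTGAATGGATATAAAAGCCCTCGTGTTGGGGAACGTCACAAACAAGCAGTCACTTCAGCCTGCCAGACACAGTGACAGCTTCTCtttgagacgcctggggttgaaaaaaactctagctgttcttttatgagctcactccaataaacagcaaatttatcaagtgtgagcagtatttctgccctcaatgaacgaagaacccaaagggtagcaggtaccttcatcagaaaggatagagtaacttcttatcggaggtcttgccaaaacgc

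Around these windows the WT calls were moderate, as read from the authors' −log10 p, the negative log10 of the peak caller's p-value at the summit within its own library. Pairs of values for WT 1 and WT 2 without another unit are this quantity throughout, and it ranks sites within a list but does not measure a difference between libraries. The member at Gm32128 (chr1:191420387-191420848), 23346 bp from Ppp2r5a, a regulatory subunit of the phosphatase PP2A, had no peak in edKO 1 or edKO 2, was called in WT 1 at a −log10 p of 10.1 and in WT 2 at 20.3, and had an edKO peak 139 bases away. The member at AW822252 (chrX:53716622-53716860), 7795 bp from Ct55, stood at 8.06 in WT 1 and 9.97 in WT 2, and the one at 2010204K13Rik (chrX:7421023-7421379), 45193 bp from the ubiquitin protease gene Usp27x, at 10.5 in WT 1 and 13.9 in WT 2. Gm32630 lies 7976 bp from Calm3, a calmodulin gene, and its member (chr7:16932008-16932409) covered the whole window, at 9.62 in WT 1 and 16.8 in WT 2. Gm13404 lies 85498 bp from Mvb12b, and its member (chr2:33973444-33973751) had 14.5 in WT 1 and 10.7 in WT 2. Lexis1, which encodes an lncRNA induced by liver X receptors in mouse liver, held part of a member (chr4:53218814-53219097) at 8.25 in WT 1 and 8.04 in WT 2, with an edKO peak 330 bases away. In each of the 6, both WT hearts were called and neither edKO heart was.

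The DR1-like repeat in the Gm32128 window was AGGGCCAAGGTCA (chr1:191420491-191420503, minus strand), that in the AW822252 window AGGGCTGAGGTCA (chrX:53716753-53716765, plus strand), and both lay inside the member. The repeat of the 2010204K13Rik window, AGATCACAGGCCA (chrX:7421001-7421013, plus strand), lay outside it. Each of the 3 repeats is on the strand opposite to its lncRNA, so the printed window shows its reverse complement. The motif was searched as AGGTCA, any 1 base and AGGTCA again, on both strands, with at most 2 mismatches over the 12 fixed letters. It was present in 3 of the 45 members' windows (6.67%, exact 95% interval 1.40 to 18.3), in 11 of the 210 windows under intergenic regions called in all 4 libraries (5.24%) and in 1268 of all 32851 windows of the table (3.86%). With at most 1 mismatch it was in none of the 45, which allows a share of up to 7.87% by the exact interval, against 2 of 210 and 182 of 32851. Repeats with spacers of 0, 2, 3, 4 and 5 bases were in 5, 3, 1, 3 and 2 of the 45 windows. That is 11.1%, 6.67%, 2.22%, 6.67% and 4.44%, against 1.90% to 4.76% of the 210 and 2.79% to 3.06% of all windows. The share with a spacer of 0, above that of DR1, had an interval of 3.71 to 24.1, against 3.81% of the 210 and 3.05% of all windows. A single AGGTCA, which also lies within an exact repeat, was present in 12 of 45 members' windows (26.7%, interval 14.6 to 41.9), against 18.6% of the 210 and 16.3% of all windows.

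Among the other motifs, the AP-1 motif TGANTCA was in 8 of the 45 members' windows (17.8%, interval 8.0 to 32.1), 7.14% of the windows under regions called in all 4 libraries and 7.81% of all windows. The T-box motif AGGTGT was also in 8 of the 45 (17.8%), against 12.9% and 13.7% in these 2 sets. The TEAD motif GGAATG was in 9 of 45 (20%), against 18.1% and 14.7%, and the GATA motif AGATAA in 4 of 45 (8.89%), against 5.24% and 11.2%. The SP/KLF motif GGGCGG was in 9 of the 45 members' windows (20%, interval 9.58 to 34.6), against 49.5% of the 210 and 35.7% of all windows. The members' windows had a median GC content of 51.0%, against 57.3% for the 210 and 52.7% for all windows, and the part of GC content in these shares was not tested. The MEF2 motif TATTTATA and the ERR motif TCAAGGTCA were in 0 of the 45, and in only 1.7% and 0.423% of all windows, so nothing can be read from these zeros. These 45 windows are a small and special part of the members, and a motif match in them is not a binding site.

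Of the 6026 intergenic regions called in both WT hearts, 1696 (28.1%) had no call in either edKO heart, 1770 were called in 1 edKO heart and 2560 in both. Over all locations, 19.4% of the regions called in both WT hearts had no edKO call, and 1.35% of those called in both edKO hearts had no WT call. The rule uses this contrast, so nothing is read from the first share. By location, the WT-only share was 28.1% (exact 95% interval 27.0 to 29.3) between genes, 27.0% in gene bodies, 5.92% within 1 kb of a gene start or end (a gene end below) and 34.9% over 100 kb from any. Intervals here and below cover counting error only. In the opposite direction, 72 intergenic regions were called in both edKO hearts and in neither WT heart, which is 2.57% of the 2798 called in both edKO hearts.

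The 2 groups differed in how much was called. The authors' lists held 27473 peaks in edKO 1, 27142 in edKO 2, 35279 in WT 1 and 38809 in WT 2, and the intergenic regions called numbered 5454, 5456, 7988 and 8986 in the same order. The pileup at a summit is the peak caller's stacked count there, as solved from the authors' fold and p-value. Whether it counts reads, fragments or cut ends is not stated in the sources used. It had a median of 19 in edKO 1, 18 in edKO 2 and 23 in each WT library. The lowest local background, a stand-in for depth, was 1.51 in edKO 1, 1.92 in edKO 2, 1.81 in WT 1 and 1.8 in WT 2. List length and pileup thus move with genotype, and their part in the count of members was not tested beyond the equal-length lists described further on. Gene ends of 10 cardiomyocyte markers were called for 8 in edKO 1, 9 in edKO 2 and 8 in each WT heart, including Tnnt2, Myh6 and Ttn. In edKO 1, edKO 2, WT 1 and WT 2, those of 10 endothelial markers were called for 3, 3, 3 and 5. Counts in this order were 2, 2, 4 and 4 of 7 fibroblast and 4, 3, 4 and 5 of 7 mural markers. They were 3, 3, 2 and 2 of 5 epicardial and 0, 0, 1 and 1 of 6 immune markers. Erythroid markers had 2 of 6 in each heart, and nerve and Schwann markers 2, 2, 1 and 2 of 6. Skeletal muscle markers had 1, 2, 2 and 3 of 4. Of these 4, Ckm was called in all 4 hearts, Myod1 in both WT hearts, Acta1 in edKO 2 and WT 2, and Myf5 in none. Of the fibroblast markers, Col1a1 and Col1a2 were called in all 4 hearts, Tcf21 in both WT hearts, Pdgfra in WT 2, Postn in WT 1, and Dcn and Lum in none, and the part of cell makeup in the members was not tested. Gene ends follow the outermost coordinates of a gene, so a promoter over 1 kb inside it is not counted. Nkx2-5 counted as uncalled in all 4 hearts, yet its promoter window overlapped a region called in all 4. The folds there were 11.6 in edKO 1, 8.01 in edKO 2, 11.1 in WT 1 and 12.8 in WT 2. Egfl7 likewise had a promoter window called in all 4.

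Most members were weak peaks. In WT 1 and WT 2 their median −log10 p was 8.15 and 8.63, and their median fold over local background 4.63 and 4.66. Their median pileup was 16 in either heart, with a lowest of 7 in WT 1 and 8 in WT 2. For comparison, the lower 5% of all peaks had a pileup of up to 9 in edKO 1, 9 in edKO 2, 11 in WT 1 and 10 in WT 2. Strength is used below for the mean, over both WT lists, of the percentile of a region's −log10 p within its list. It had a median of 31.9 for the members, 43.1 for intergenic regions also called in 1 edKO heart and 67.7 for those called in all 4 libraries. The members' median width was 328 bp (200 to 1138), against 390 bp and 522 bp in these 2 sets, whose regions join peaks of more lists, and the part of that in their width was not tested. A −log10 p of at least 10 in both WT hearts was reached by 277 members (16.3%), of at least 20 by 24, of at least 30 by 8 and of at least 40 by 4.

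The share of intergenic regions without an edKO call went down as WT strength went up. It was 63.3% (81 of 128) in the lowest 10 percentiles of strength, 44.9% between the 30th and 40th percentile, 17.8% between the 50th and 60th and 1.32% (6 of 453) between the 80th and 90th. In the top bin, 1 of 184 intergenic regions (0.543%) was WT-only, the region upstream of Pdk4. Gene-body regions had a like course, at 68.4%, 44.6%, 18.7% and 0.876% in the same 4 bins. Gene ends lay lower in each of them, at 50.7%, 25.3%, 6.46% and 0 of 2312. In the lowest bin the intervals of gene ends (38.2 to 63.2) and intergenic regions (54.3 to 71.6) overlapped, and no test of these differences was run.

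**Figure D1:**
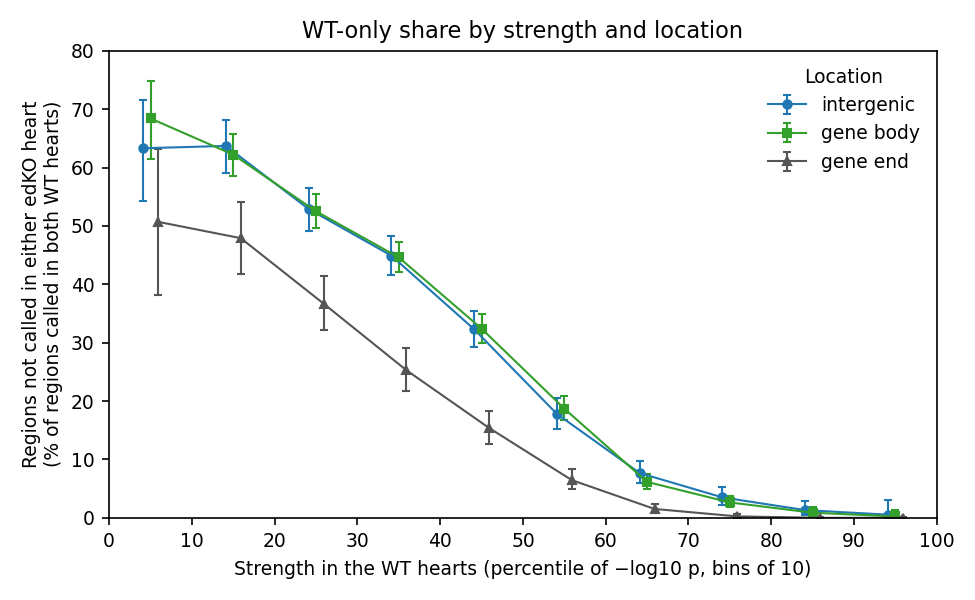
Share of regions called in both WT hearts that were called in neither edKO heart (y axis, %), in bins of WT strength (x axis, percentile), for intergenic regions, gene bodies and gene ends. Bars are exact 95% binomial intervals over regions. Intergenic and gene-body regions lie together, from over 60% among the weakest to 0.543% and 0.239% among the strongest, and gene ends lie below both in the lower bins.

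The 2 WT hearts ranked the members loosely. The log2 ratio of fold in WT 2 over WT 1 had a median of 0.04, with a range of −0.54 to 0.59 between the 5th and 95th percentile. The fold was higher in WT 2 in 948 of the 1696 members. Among the intergenic regions called in all 4 libraries this median was 0.098, and 1596 of 2560 had the higher fold in WT 2. The summits of the 2 hearts lay within 50 bases of each other in 60.9% of the members, against 68.3% of the intergenic regions called in all 4 libraries. Over regions, Spearman's rho between the −log10 p of WT 1 and of WT 2 was 0.37 for the members (n = 1696) and 0.82 for the regions called in all 4 (n = 2560). These points share their 2 libraries, and the members' range of strength is narrower by choice.

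**Figure D2:**
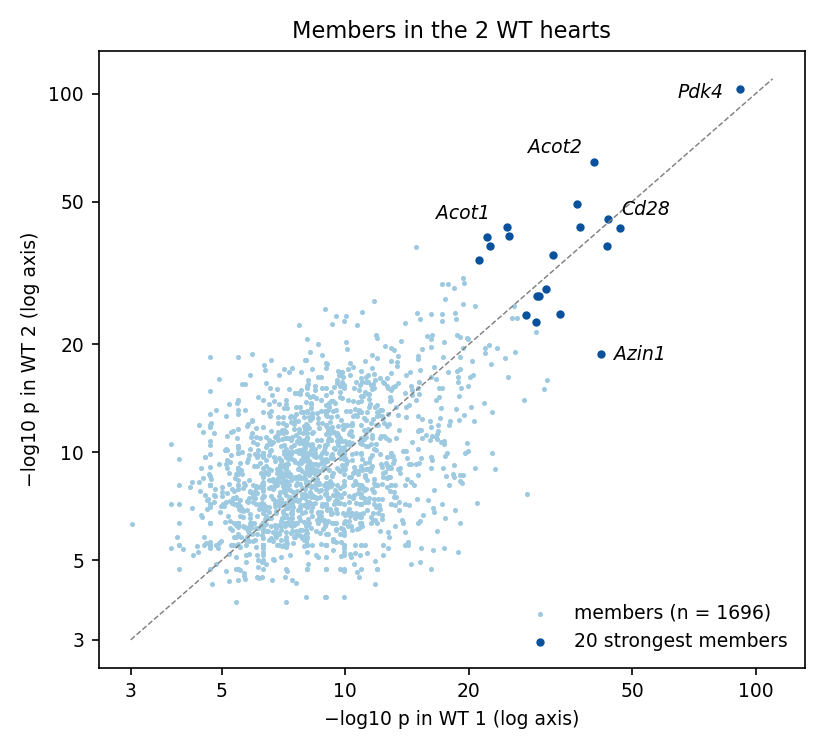
The −log10 p of each member in WT 1 (x axis) and WT 2 (y axis), both on log axes, with the 20 strongest members in dark blue. The cloud lies around the medians of 8.15 and 8.63, and the region near Pdk4 stands alone at the top at 91.4 and 103. The dashed line marks equal values.

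The strongest member by far lay 12952 bp upstream of the start of Pdk4 (chr6:5509230-5510367), the gene of pyruvate dehydrogenase kinase 4, which holds back glucose oxidation and is a classic PPAR target. It had no peak in edKO 1 and none in edKO 2, but was called in WT 1 at a −log10 p of 91.4 and in WT 2 at 103, with folds of 13.4 and 16.3 and pileups of 115 and 116. At 1138 bp it was also the widest member, and both WT summits fell on the same base. The nearest edKO peak lay 12319 bases away, at the gene end of Pdk4 (chr6:5495969-5496915), which was called in every library with folds of 13.9 in edKO 1, 13.6 in edKO 2, 14.0 in WT 1 and 17.2 in WT 2. So the start of the gene was called at similar folds in all 4 hearts while the region upstream was called in the WT hearts alone. A further member (chr6:5589709-5590038), 93431 bp upstream of Pdk4, had no edKO call and stood at 19.3 in WT 1 and 8.65 in WT 2.

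Next in strength came the region 5368 bp downstream of the end of Acot2 (chr12:83999245-83999850), a thioesterase gene whose enzyme releases fatty acids from CoA in mitochondria. It had no peak in edKO 1 or edKO 2, but was called in WT 1 at a −log10 p of 40.4 and in WT 2 at 64.6, with folds of 9.40 and 14.5. The gene end of Acot2 was called in all 4, with folds of 7.99 in edKO 1, 4.83 in edKO 2, 6.48 in WT 1 and 6.27 in WT 2. The neighbouring thioesterase gene Acot1 had a member 2883 bp past its end (chr12:84020553-84020941), again without an edKO peak, at 24.8 in WT 1 and 42.4 in WT 2. Here the gene end itself was uncalled in edKO 1 and edKO 2, against folds of 6.41 in WT 1 and 8.87 in WT 2. A weaker member lay 5925 bp upstream of Acot4 in the same cluster (chr12:84030910-84031329), at 9.33 in WT 1 and 13.9 in WT 2. These genes are close copies in their coding parts, and the treatment of reads with several matches is not stated in the sources used. The promoter windows of Acot1 and Acot2 share no run longer than 9 bases. The members lie outside these windows and their sequence was not at hand. The part of reads with several matches was therefore not tested.

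On chromosome 18, a member 9604 bp from Impa2 (chr18:67279119-67279643), an inositol monophosphatase gene, had no peak in edKO 1 or edKO 2 but was called in WT 1 at a −log10 p of 36.8 and in WT 2 at 49.2, with an edKO peak 216 bases away. Impa2 had 6 members, more than any other gene, within 60.1 kb, and 5 of them were weaker, at 6.52 to 22.7 over both WT hearts. Its gene end was called in all 4, with folds of 15.8 in edKO 1, 16.2 in edKO 2, 14.8 in WT 1 and 15.2 in WT 2. The member 4369 bp past Acaa2 (chr18:74810576-74811321), a thiolase of mitochondrial fatty acid oxidation, had no edKO peak and stood at 32.0 in WT 1 and 35.5 in WT 2. At the gene end of Acaa2 the folds were 15.7 in edKO 1, 12.5 in edKO 2, 15.5 in WT 1 and 15.2 in WT 2.

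Several of the 20 strongest members lay near genes with other roles. Around Cd28, a costimulatory receptor of T cells, the strongest of 3 members lay 42548 bp away (chr1:60815907-60816268), with no edKO peak, 43.8 in WT 1 and 44.7 in WT 2, and the gene end of Cd28 was called in no library. The region 8894 bp upstream of Trp53inp2 (chr2:155372517-155372917), a regulator of autophagy, had none in edKO 1 or edKO 2, against 37.4 in WT 1 and 42.4 in WT 2. Its gene end was called in all 4, with folds of 9.64 in edKO 1, 6.31 in edKO 2, 9.29 in WT 1 and 9.73 in WT 2. Dysf, which encodes the membrane repair protein dysferlin, had 3 members, the strongest 32243 bp downstream (chr6:84243303-84243867), at 43.3 in WT 1 and 37.6 in WT 2 with no edKO call. The member 37339 bp from Gata4 (chr14:63309051-63309505), a cardiac transcription factor, stood at 21.2 in WT 1 and 34.3 in WT 2, with no call in edKO 1 or edKO 2. The others of the 20 lay near 4930519L02Rik, Ppm1a, Mdm1, Ddx20, Pdik1l, Cyyr1, Slc25a33, Wif1, Azin1, Slc9a9 and Trpm3, at 22.2 to 46.7 in WT 1 and 18.8 to 42.1 in WT 2. Among these 11, Azin1 had the widest gap between the hearts, at 42.1 in WT 1 and 18.8 in WT 2. An edKO peak lay 993 bases from the member near 4930519L02Rik and 507 bases from the one near Pdik1l.

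**Figure D3:**
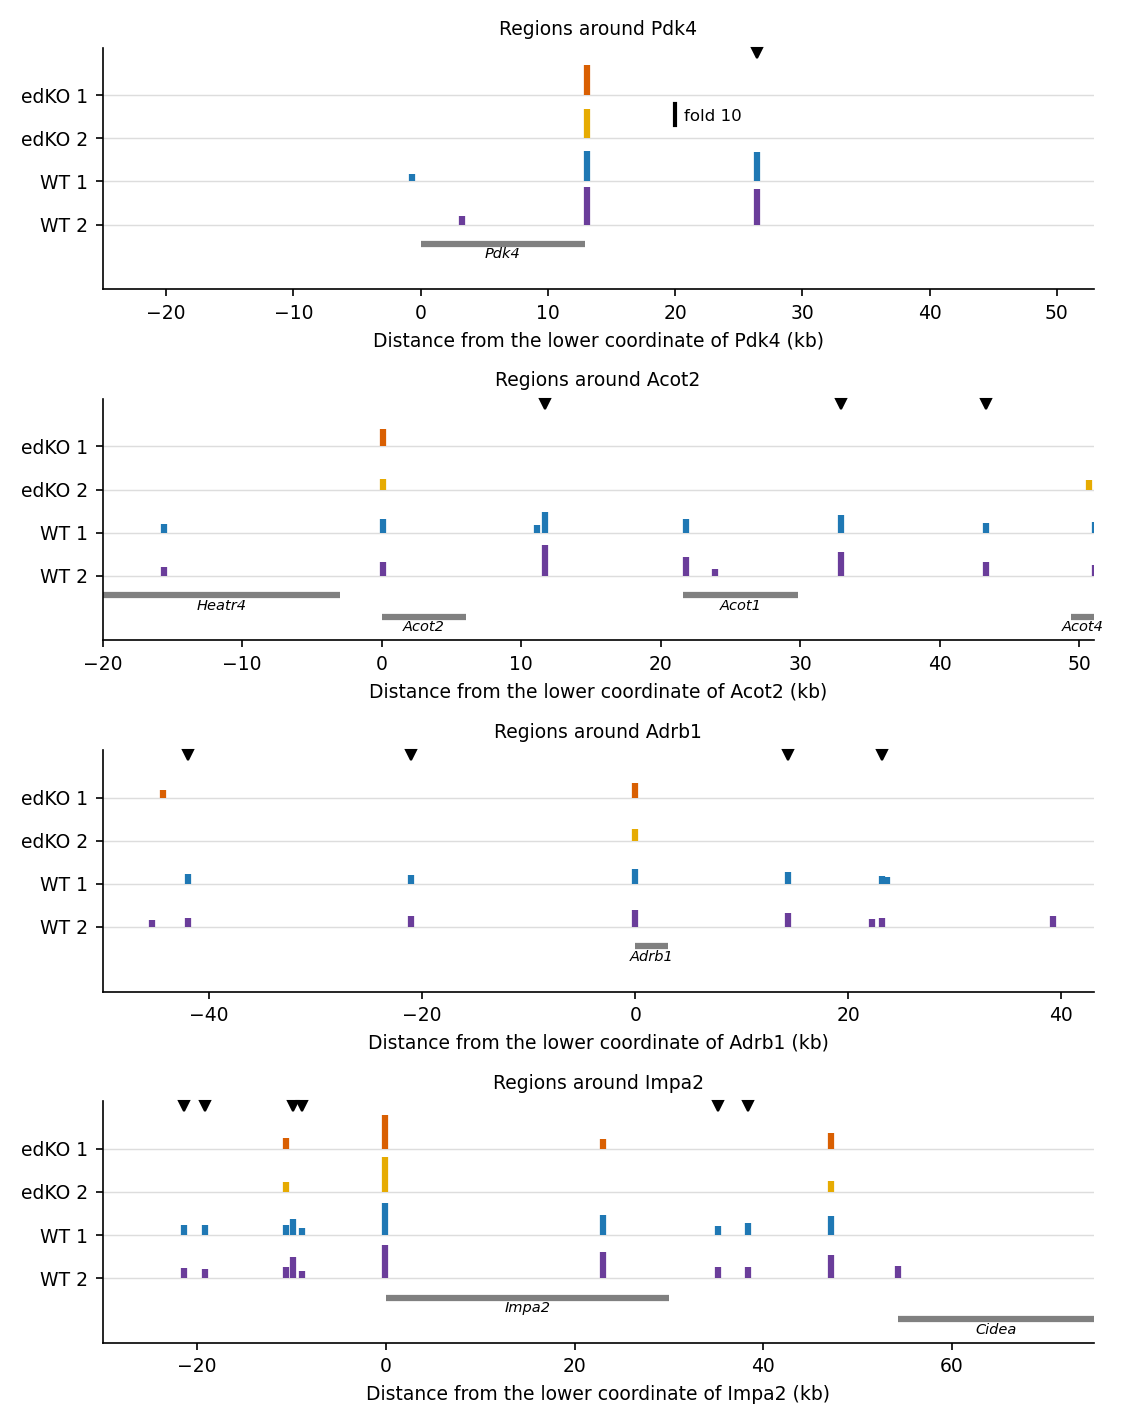
Called regions around Pdk4, Acot2 with Acot1, Adrb1 and Impa2, by distance from the gene's lower coordinate (x axis, kb), in edKO 1, edKO 2, WT 1 and WT 2 (rows, top to bottom). The height of a bar is the authors' fold at the summit, triangles mark members and grey bars genes. The gene ends of Pdk4, Acot2, Adrb1 and Impa2 have bars in all 4 rows, while the members have bars in the WT rows alone.

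Genes of fatty acid uptake and oxidation had 12 members among the 28 intergenic regions called in both WT hearts near them (42.9%, interval 24.5 to 62.8), against 28.1% of all such regions. The 12 lay near 10 of the 45 genes of the list. The strongest were those of Acot2, Acaa2 and Acot1. Cd36, the fatty acid transporter, had no gene-end call in the edKO hearts and folds of 5.17 in WT 1 and 3.57 in WT 2, and a member 30109 bp away at 11.1 in WT 1 and 5.5 in WT 2. Further members of this list lay near Cpt2, Slc22a5, Acadl, Ppargc1b and Fabp4, with values of 5.40 to 13.5 in WT 1 and 3.96 to 15.3 in WT 2. The interval of the share includes 28.1%, and the difference was not tested.

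The list of targets of PPAR and the other RXR partners had 9 members of 31 regions (29.0%, interval 14.2 to 48.0), near 7 of its 30 genes, which is close to the share of all intergenic regions. Apart from both members at Pdk4, these included Vldlr, a lipoprotein receptor, with a member 40558 bp upstream (chr19:27175611-27175922) at 12.6 in WT 1 and 15.3 in WT 2. Thrsp, a lipogenic gene that responds to thyroid hormone, had one 7342 bp upstream (chr7:97424892-97425176) at 11.0 in WT 1 and 15.7 in WT 2. At Txnip, which restrains glucose uptake, a member 1986 bp past the end stood at 19.2 in WT 1 and 8.21 in WT 2. Abca1 had a second member 71938 bp upstream at 10.5 in WT 1 and 6.54 in WT 2, and Cyp26a1, which degrades retinoic acid, one 2500 bp past its end at 8.83 in WT 1 and 7.20 in WT 2. Genes of nuclear receptors and their coregulators had 4 members of 24 regions (16.7%), near Vdr, Rxra, Nr2f2 and Nr4a2. The one near Rxra, a gene targeted in the edKO hearts, lay 35746 bp past its end (chr2:27799065-27799435), with no edKO call, 5.84 in WT 1 and 16.4 in WT 2.

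Glucose genes had 8 members of 22 regions (36.4%, interval 17.2 to 59.3). Slc16a1, the monocarboxylate transporter, had 2, at 7.71 in WT 1 and 22.6 in WT 2 for the one 9035 bp past its end, and at 7.82 in WT 1 and 14.9 in WT 2 for the one 41180 bp upstream. Pdp1, the phosphatase that activates pyruvate dehydrogenase and so opposes Pdk4, had 3, the strongest at 9.90 in WT 1 and 11.9 in WT 2. Hk2, a hexokinase, had 1 member 47359 bp upstream at 8.95 in WT 1 and 13.0 in WT 2. The list of the TCA cycle and oxidative phosphorylation had 3 of 12 (25.0%), of which 2 lay near Sucla2, the stronger at 18.6 in WT 1 and 23.6 in WT 2, and 1 near Idh2. Idh2 had no call at 1 of its gene ends in the edKO hearts, but its RefSeq promoter window lies inside the annotated gene and was called in all 4, with folds of 7.46 in edKO 1, 8.80 in edKO 2, 7.84 in WT 1 and 7.66 in WT 2.

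The sarcomere and excitation-contraction list had 12 members of 47 regions (25.5%, interval 13.9 to 40.3). Myl4, an atrial myosin light chain, had the strongest, 2881 bp past its end (chr11:104590096-104590615), at 16.3 in WT 1 and 21.3 in WT 2. Kcnh2, a potassium channel, had 2, and the stronger of these had an edKO peak 69 bases away. Adrb1, the main beta adrenergic receptor of heart muscle, had 4 members, between 11033 and 41796 bp away, the strongest at 13.4 in WT 1 and 17.9 in WT 2. Its gene end was called in all 4, with folds of 6.63 in edKO 1, 5.52 in edKO 2, 6.82 in WT 1 and 7.94 in WT 2. The cardiac transcription factor list had 21 members of 67 regions (31.3%, interval 20.6 to 43.8) near 14 of its 31 genes. After Gata4, its strongest were near Irx3, at 23.5 in WT 1 and 19.6 in WT 2, near Irx4, at 14.5 in both WT hearts, and near Prox1, at 12.5 in WT 1 and 15.6 in WT 2, and none of these had an edKO call.

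Other gene lists gave shares with wide intervals, and their differences were not tested. Housekeeping genes had 7 members of 21 regions (33.3%, interval 14.6 to 57.0), among them Eef1a1, a translation elongation factor, at 10.6 in WT 1 and 12.7 in WT 2, and Eef2, at 9.5 in WT 1 and 13.1 in WT 2. Cell cycle genes had 6 of 20 (30%), near Cdk1, Ccnd1 and Myc among others. Endothelial markers had 8 of 19 (42.1%, interval 20.3 to 66.5), near Egfl7, Kdr, Pecam1 and Cdh5, with Egfl7 at 18.6 in WT 1 and 13.2 in WT 2 for the strongest. Fibroblast markers had 2 of 3, cardiomyocyte markers 2 of 14 (14.3%), epicardial markers 1 of 4 and immune markers 1 of 1. Mural and nerve markers had 0 of 3 each, and erythroid and skeletal muscle markers had no intergenic region called in both WT hearts. The intervals of all 16 lists with regions include 28.1%, and the lists together cover 94 members (5.54%).

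**Figure D4:**
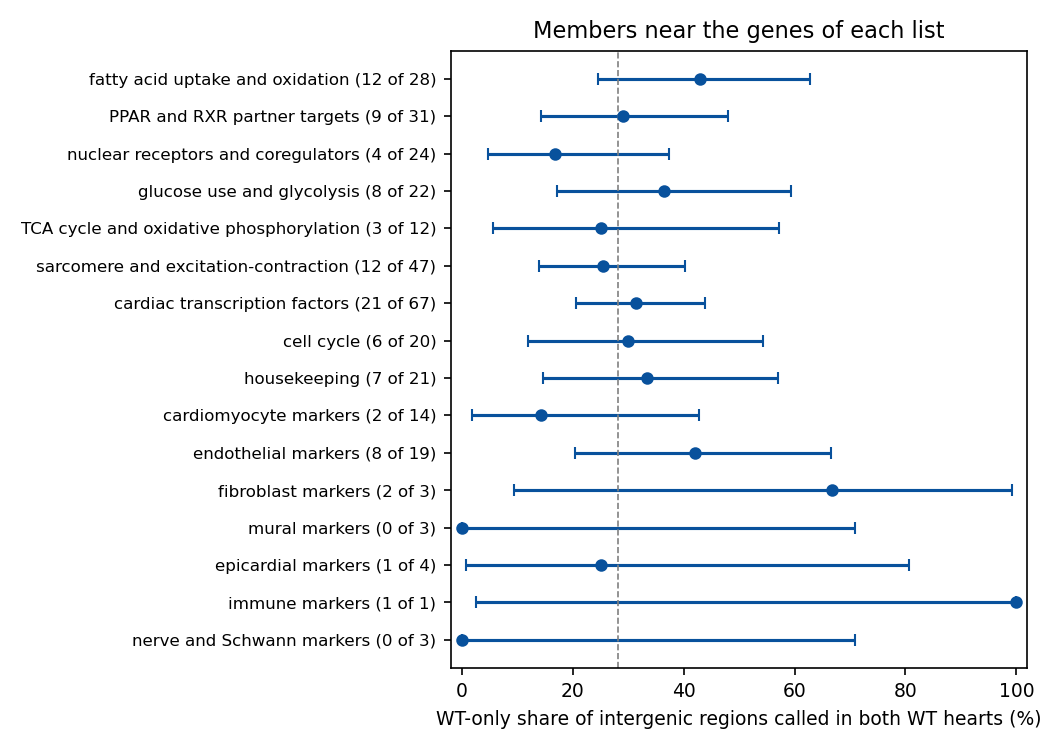
WT-only share (x axis, %) of the intergenic regions called in both WT hearts whose nearest gene is on a list (rows, with members of regions), with exact 95% binomial intervals. The dashed line is the share of all intergenic regions, 28.1%, and each interval crosses it.

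Members were spread over 1449 genes, of which 1243 had 1 member, 172 had 2, 29 had 3, 4 had 4 and 1 had 6. Those with 4 were Nfib and Klf10, which encode transcription factors, Adrb1 and Reep3. Such counts depend on how many regions a gene has. Regions of any location called in both WT hearts numbered 14 for Nfib, 10 for Klf10, 6 for Adrb1, 9 for Reep3 and 9 for Impa2. Neither the counts per gene nor the stretches were tested. Members less than 50 kb apart formed 1 stretch of 6, around Impa2, 2 stretches of 5 and 4 of 4, while 1235 members stood alone. One stretch of 5 ran over 114 kb around Adrb1 and Nhlrc2 on chromosome 19 (chr19:56631701-56745414), where 3 of the 11 regions were called in all 4 libraries. The other ran over 98.2 kb by Klf10 and Odf1 on chromosome 15 (chr15:38186051-38284234), where 3 of 11 were called in both WT hearts and 1 edKO heart. After the one at Pdk4, the widest members lay near Ppp1r3c (877 bp), Opa1 (852 bp), Rtp1 (829 bp) and Lpin1 (803 bp), and these reached at most 12.6 in WT 1 and 12.2 in WT 2.

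Of the 1449 genes, 880 (60.7%) had a gene end called in all 4 libraries, against 62.5% of the 1897 genes near intergenic regions called in all 4 and 47.3% of all 21627 protein-coding genes. A promoter over 1 kb inside the annotated gene is not counted here. By library, a gene end was called for 942 of the genes with a member in edKO 1, 947 in edKO 2, 1003 in WT 1 and 1023 in WT 2 (65.0%, 65.4%, 69.2% and 70.6%). Over all protein-coding genes these shares were 51.5%, 52.1%, 54.2% and 55.5%, so the WT shares were the higher ones there too. Of these genes, 37 (2.55%) had a WT-only gene end, against 1.85% of the genes near regions called in all 4 and 1.66% of all genes. Beside Acot1, Cd36 and Idh2, these included Gata5, a cardiac transcription factor, with gene-end folds of 3.59 in WT 1 and 4.15 in WT 2 and none in the edKO hearts, and a member at 14.5 in WT 1 and 4.88 in WT 2. Synpo2, an actin-binding protein of the Z disc, had gene-end folds of 4.88 in WT 1 and 4.49 in WT 2, and a member 5119 bp away at 30.5 in WT 1 and 15 in WT 2. Gata5 is on a list, while Synpo2 was picked after its values were seen.

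Distance to the gene made little difference to the WT-only share. The members' median distance was 17079 bp (quartiles 6770 and 38260.5), against 15762.5 bp for the intergenic regions called in all 4 libraries. The share was 27.9% at 1 to 2 kb, 26.7% at 2 to 5 kb, 26.9% at 5 to 10 kb, 28.6% at 10 to 25 kb, 28.0% at 25 to 50 kb and 30.1% at 50 to 100 kb, and all 6 intervals include 28.1%. Of the members near a gene whose strand is known, 650 lay upstream of the start and 665 downstream of the end. These are 38.3% and 39.2% of all members, against 37.5% and 38.6% of the intergenic regions called in all 4 libraries. Per chromosome, the share ranged between 21.5% on chromosome 17 and 32.5% on chromosome 3, with 25.3% (21 of 83) on the X. The intervals of chromosome 17 (17.0 to 26.5) and chromosome 2 (23.3%, 19.6 to 27.3) lay below 28.1%. Those of the other chromosomes included it, and no test was run.

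**Figure D5:**
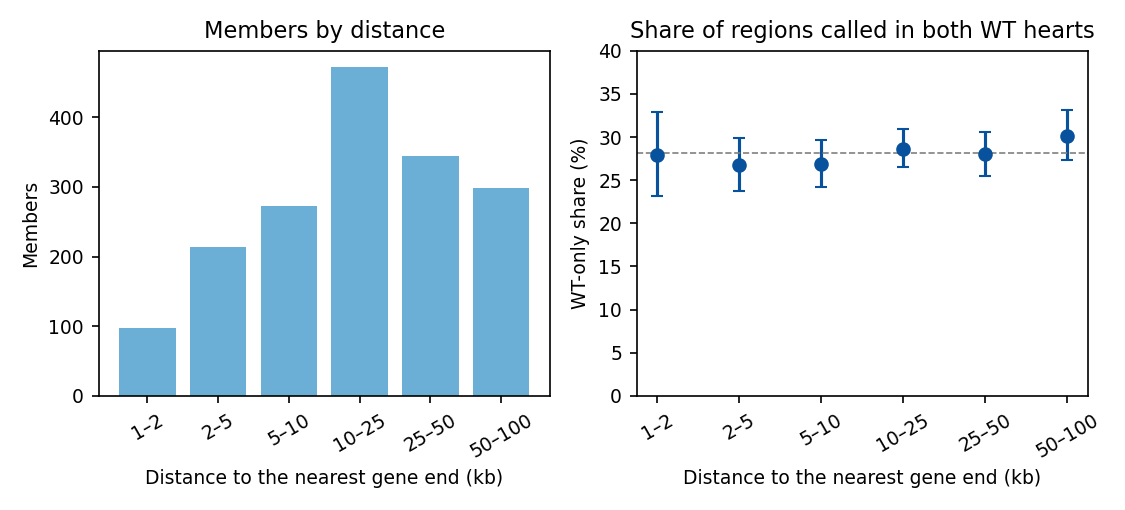
Number of members (left, y axis) and WT-only share of the intergenic regions called in both WT hearts (right, y axis, %, with exact 95% binomial intervals), by distance to the nearest gene end (x axis, kb). The fullest bin is 10 to 25 kb (472 members, 27.8%), and the shares stay between 26.7% and 30.1% around the dashed line at 28.1%.

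At the limits of the rule, the members just inside 1 kb lay near Il4ra (1001 bp, −log10 p 5.53 in WT 1, 6.63 in WT 2) and Rd3 (1019 bp, 7.20 and 5.60). Just outside it were WT-only regions near Npm3 (999 bp, 7.01 in WT 1 and 9.45 in WT 2) and Elobl (996 bp, 7.59 and 6.10). Inside the 100 kb limit lay those of Cog6 (99661 bp, 4.69 in WT 1 and 7.20 in WT 2) and Slc25a26 (99585 bp, 9.02 and 10.5). Just outside it was a region of Bod1 (100101 bp, 9.05 in WT 1 and 11.0 in WT 2). The values on the 2 sides of a limit overlapped.

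Many members had an edKO peak in the neighbourhood. The median distance of a member to the nearest edKO peak was 11060 bases. Such a peak lay within 1 kb of 148 members (8.73%), within 5 kb of 454 (26.8%) and within 25 kb of 1310 (77.2%). These shares were not counted for other regions, so they are not read as a trait of the members. A neighbouring call does not show whether the member itself was open in the edKO hearts, since a missing call means only that the site stayed under the authors' threshold there. Near the ryanodine receptor gene Ryr2, which encodes the calcium release channel of heart muscle, a member 3583 bp past the end (chr13:11549121-11549516) had no edKO peak, 8.78 in WT 1 and 12.1 in WT 2, and an edKO peak 330 bases away. The opposite kind lay 7887 bp from Ryr2 (chr13:12114832-12115173), at 10.9 in edKO 1 and 7.74 in edKO 2, with no WT call. In all, 16 genes had both kinds, among them Ryr2, Ccnd2 and Pfkl. The 72 edKO-only intergenic regions were weak as well, with a median −log10 p of 5.89 in edKO 1 and 6.04 in edKO 2, and the strongest by mean percentile over both edKO lists lay near Mymk, at 9.67 in edKO 1 and 9.18 in edKO 2.

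Non-coding genes underlay part of the members. A non-coding gene was overlapped by 370 members (21.8%), against 24.0% of the intergenic regions called in both WT hearts and 1 edKO heart and 31.6% of those called in all 4. Promoter windows of lncRNAs were overlapped by 2.65% of the members, 3.39% and 8.20% in these sets. No member overlapped a microRNA hairpin of the RefSeq table, and the nearest were Mir203, 282 bases from a member near Aspg (6.14 in WT 1 and 5.01 in WT 2), Gm51289 on the other strand, 289 bases from the same member, and Mir7b, 552 bases from one near Fem1a (9.87 in WT 1 and 9.90 in WT 2).

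With each list cut to the length of the shortest, which takes out list length as a difference between the groups, 727 intergenic regions were WT-only (17.5% of 4164), 175 were edKO-only, and 721 of the 727 were members. The cut takes out peaks and adds none, so strong members without an edKO call remain WT-only by construction.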

How the data were processed

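Open chromatin was measured in 4 newborn hearts, 1 library each. Per the submitters' processing notes, MACS2, Bowtie2, SAMtools, cutadapt, bcl2fastq and CASAVA were used, with no order given, on the build mm10 (GRCm38). Versions, the Tn5 shift and the treatment of duplicate reads are not stated in the sources used. The authors deposited 1 peak list per library, not pooled, with a score, a fold (a ratio of summit pileup to local background), a −log10 p, a −log10 q-value and a summit offset per peak. These are the authors' values and served only for describing, ranking and filtering within a list.

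Peaks on chromosomes 1 to 19 and X were joined at 1 bp of overlap and placed against the RefSeq GRCm38.p6 table of 21627 protein-coding genes (Python 3.11.15, pandas 2.3.3, NumPy 2.4.6, SciPy 1.17.1). A region was assigned to the gene with the nearest start or end, within 100 kb. Fold and −log10 p were solved together for pileup and background under a Poisson tail, within 0.01 in −log10 p, in 3000 peaks per list and all members. The steps were tested on simulated peaks. The members and the 18 gene lists (362 genes, all matched) were chosen with earlier results of these data known. Named were the 20 strongest members, up to 4 per list, genes with at least 3 members (at most 12), the stretches with the most members, the widest 5 and those at the limits, plus items said to be picked later; 1 gene is not reported here. No test was run; shares have exact (Clopper-Pearson) 95% intervals, which count regions and not hearts. Alternatives changed the threshold, list length, merging, gene table and distance limits, and left out each heart.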

Additional observations from a re-analysis of the deposited data

How the results depend on the processing

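The number of WT-only intergenic regions, their share and the number of edKO-only regions (1696, 28.1% and 72) depend on the lists compared. Requiring 5 or more on the −log10 p scale of each list gave 1684, 29.1% and 53, and requiring 10 gave 1099, 36.6% and 5, with 277 members among the 1099. In lists of equal length they were 727, 17.5% and 175. With windows of 100 bases on either side of a summit they were 1721, 28.8% and 91, and with peaks joined up to 500 bases apart 1617, 27.3% and 77. With all genes of the table, non-coding ones included, 1504, 30.9% and 58 were found, and within 2 to 50 kb of a gene 1301, 27.8% and 59. Leaving out each heart in turn gave 2103 to 4029 WT-only regions (34.9% to 50.8%) and 135 to 1998 edKO-only ones, since fewer lists then have to concur. An alternative added after seeing the data, the limit of 10 applied to the WT lists and not to the edKO lists, gave 277, 9.22% and 340. Of the 20 strongest members, 18 were WT-only intergenic regions with the joining at 500 bases and 15 each with all genes and with 2 to 50 kb; settings that only remove peaks keep them by construction. The percent of members whose nearest gene has an end called in all 4 libraries was 61.3%, 48% at a limit of 10 in each list and 34% with all genes. In the lncRNA windows, the share with a DR1-like repeat went to 0% with at most 1 mismatch, also added later. The counts per gene list moved by over 1.5 times in 83 of 216 cases, 47 of them lower. No paired analysis was possible because the results come from no test. The planned motif search over all members was not run, as no genome sequence was used here.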
